A study of Homo sapiens with 6 samples.

Results

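The transcriptome described here is that of control-transfected KYSE30 cells, a long-established human line from a squamous carcinoma of the oesophagus. Its members are the genes with an FPKM of at least 1 in both control libraries, where FPKM is a fragment count corrected for the length of the gene and the depth of the library. Of 58735 genes in the table, 13088 met this floor, which is 22.3% of all genes. The floor alone kept 13675 genes in replicate 1 and 13700 in replicate 2. By the floor, 10680 of 19951 protein-coding genes were members (53.5%), and the counts for gene lists below are read against that share.

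Both libraries came from KYSE30 cells grown in RPMI 1640 with serum and transfected with a non-targeting siRNA (si-NC) at 100 nM with the lipid reagent HiPerFect. Total RNA was taken with Trizol close to 80% confluence. The series also holds 4 libraries of cells given siRNAs against RAB23, which are not used here, and RAB23 itself stood at 3.27 and 3.33 FPKM in the controls. The design text calls the 2 libraries biological replicates without saying whether they came from separate cultures, and untransfected cells are not analysed here, so the levels are those of cells exposed to lipid and siRNA.

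Squamous epithelium of the oesophagus is a stratified tissue. Its basal cells divide on the basement membrane, hold the transcription factors TP63 and SOX2 and the keratin pair KRT5 and KRT14, and signal through the epidermal growth factor receptor EGFR. Cells above them switch to the keratins KRT4 and KRT13 and to envelope proteins such as involucrin, whereas simple and glandular epithelia are built on KRT8 and KRT18.

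Of the 4 marker genes 3 were members and 1 was not. EGFR stood at 163 and 162 FPKM in replicates 1 and 2, from 48675 and 39675 reads. SOX2 stood at 35.8 and 40.6 FPKM, and TP63, the master factor of stratified epithelium, at 14.2 and 14.6 FPKM. KRT5, the basal keratin, was read only 5 times in each library, at 0.0488 and 0.0596 FPKM, and no other annotated gene shares its exons. Pooled over both libraries, the exact 95% Poisson interval for KRT5 ran from 0.0257 to 0.0987 FPKM. Of the 4 markers given for a squamous line, KRT5 alone thus lay below the floor. Since 53.5% of protein-coding genes met the floor, membership of the other 3 does not by itself establish squamous identity. Intervals of this kind cover counting error only. The table gives 1 value per gene and does not separate TP63 transcripts started at the first promoter from those started inside the gene.

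The 4 marker genes thus spanned levels from under 0.1 to over 100 FPKM, and their upstream sequences are shown because the promoters differed in CpG content as well. Each line gives the 200 bases before the RefSeq start on the strand of the gene (RefSeq, GRCh38.p14), with every CG pair in capitals. The windows are chr3:189631189-189631388 on the plus strand for TP63, chr3:181711725-181711924 on the plus strand for SOX2, chr7:55018817-55019016 on the plus strand for EGFR and chr12:52520395-52520594 on the minus strand for KRT5.
TP63: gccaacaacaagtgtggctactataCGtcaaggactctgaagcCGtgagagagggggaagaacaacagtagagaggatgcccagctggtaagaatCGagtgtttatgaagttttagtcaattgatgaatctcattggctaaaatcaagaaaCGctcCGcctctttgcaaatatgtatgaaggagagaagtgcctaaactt
SOX2: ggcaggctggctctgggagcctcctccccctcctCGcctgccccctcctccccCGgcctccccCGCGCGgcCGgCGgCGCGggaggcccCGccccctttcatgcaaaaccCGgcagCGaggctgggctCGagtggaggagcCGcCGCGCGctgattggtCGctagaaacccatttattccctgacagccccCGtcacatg
EGFR: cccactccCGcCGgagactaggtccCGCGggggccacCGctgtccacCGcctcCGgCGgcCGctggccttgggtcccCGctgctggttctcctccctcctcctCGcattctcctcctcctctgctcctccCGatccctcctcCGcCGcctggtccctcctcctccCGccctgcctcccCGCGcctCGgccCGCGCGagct
KRT5: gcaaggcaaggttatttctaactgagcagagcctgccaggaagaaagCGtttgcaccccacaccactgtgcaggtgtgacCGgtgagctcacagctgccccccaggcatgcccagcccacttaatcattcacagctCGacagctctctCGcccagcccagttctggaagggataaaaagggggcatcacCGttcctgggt
The printed stretch held 21 CG pairs for EGFR, 19 for SOX2, 5 for TP63 and 5 for KRT5. Over the full 300-base window, from 250 bases before the start to 50 after it, the ratio of observed to expected CpG was 0.893 for EGFR, 0.667 for SOX2, 0.491 for TP63 and 0.301 for KRT5. Among the 4, KRT5 alone had the letters ATAAA on its own strand 16 to 40 bases upstream, beginning 29 bases before the start. The TP63 window lies at the start of the gene, so promoters inside the gene are not shown.

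The basal squamous list, drawn up with earlier results of these data known, was largely present. Of its 28 genes, TP63 and KRT5 included, 25 were members (89.3%), with a median of 15.4 FPKM. ITGB4, the integrin chain of hemidesmosomes, led the list at 407 and 377 FPKM. SFN, the epithelial 14-3-3 protein, followed at 311 and 291 FPKM. The hemidesmosome and basement membrane genes ITGA6 (90.4 and 91.8 FPKM), LAMB3 (89.1 and 83.4 FPKM) and COL17A1 (78.4 and 82.5 FPKM) lay within a narrow band beneath them. So did CDH3, which encodes P-cadherin, at 83.3 and 82.5 FPKM. The junction gene PERP reached 64.5 and 67.7 FPKM. The basal keratins were far lower. KRT15 stood at 7.39 and 7.504 FPKM and KRT14, the usual partner of KRT5, at 2.26 and 2.13 FPKM. DSG3, the desmosomal cadherin of basal cells, was read at 8.93 and 9.37 FPKM, and NGFR, a receptor of basal stem cells, at 6.01 and 5.97 FPKM. Besides KRT5, the genes below the floor were the desmosomal plaque gene PKP1 and CSTA, which encodes cystatin A, both named after their values were seen. PKP1 had 0.0270 and 0.0247 FPKM, and CSTA was at 0 in replicate 1 and 0.0745 FPKM in replicate 2.

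Neighbours in the order of levels were separated where both libraries of the higher gene exceeded both of the lower and the exact 95% Poisson intervals of the pooled reads did not overlap. Among the 25 basal members this held for 17 of 24 neighbouring pairs. S100A2, DST, BCAM and LAMA3, between 16.02 and 18.2 FPKM in either library, were not separated from one another in that order, and TP63 was not separated from JAG2.

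Genes of differentiated squamous layers were present in part. Of 47 suprabasal and cornified genes, 17 were members (36.2%), below the 53.5% of protein-coding genes, and 9 had no read. LYPD3, a surface protein of upper layers, was highest at 63.8 and 63.1 FPKM. The envelope plakins PPL (49.7 and 46.6 FPKM) and EVPL (22.5 and 22.4 FPKM) were also members. EMP1, a membrane protein, stood at 37.8 and 36.4 FPKM, CLIC3 at 29.4 and 28.6 FPKM, and the protease KLK5 at 22.9 and 23.8 FPKM. SCEL, which encodes sciellin of the envelope, had 22.2 and 21.3 FPKM. KRT13, the main keratin of the suprabasal oesophagus, was a member at 24.6 and 30.7 FPKM, whereas its pair KRT4 stayed below the floor at 0.278 and 0.525 FPKM. IVL, the gene of involucrin, had 11.3 and 10.6 FPKM, and SPRR3, a small envelope protein, 2.41 and 1.88 FPKM. The late genes were near or at 0. FLG, which encodes filaggrin, stood at 0.148 and 0.161 FPKM, MAL at 0.431 and 0.351 FPKM, and TGM3, an envelope transglutaminase, was read once. CRNN and LOR had no read in either library, which allows up to 0.0363 and 0.0562 FPKM, the levels that 3 reads over both libraries would give. The keratins induced by injury and fast growth were low but in part present, with 3 of 5 as members. KRT6A stood at 3.69 and 4.30 FPKM, KRT17 at 2.36 and 2.39 FPKM and KRT16 at 1.57 and 1.74 FPKM.

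The keratin RNA was chiefly that of keratins grouped here under simple epithelium. KRT19 was the fourth highest nuclear protein-coding gene at 1309.5 and 1256 FPKM. KRT8 stood at 634 and 620 FPKM and its filament partner KRT18 at 427 and 415 FPKM, and KRT7 at 18.3 and 16.8 FPKM. Together the 5 keratins of simple epithelium, of which 4 were members, made 92.1% and 91.8% of the summed FPKM of 55 keratin genes. By mean FPKM KRT19 alone made 50.2%, so this share depends on grouping KRT19 with simple epithelium. On principal transcript length KRT19 made 40.3% and KRT8 38.0%, so the lead of KRT19 over KRT8 depended on the length used. The 12 keratins of stratified epithelium, 7 of them members, made 2.40% and 2.77%. KRT8 was 281 and 291 times as high as KRT14 per length in the table, and 674 times as high on principal transcript length. The next keratin was KRT80, a filament protein of many epithelia, at 136 and 127 FPKM (named after its value was seen).

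**Figure D1:**
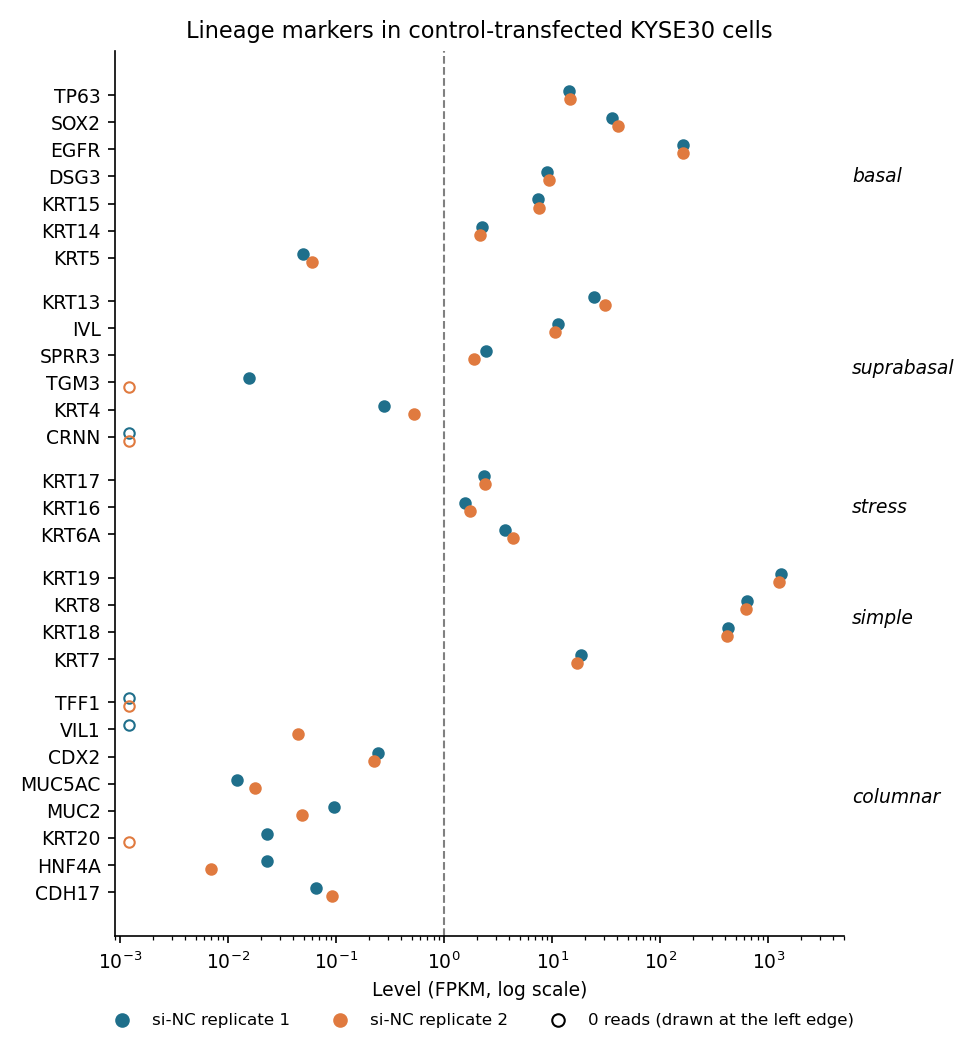
Level of each defining or leading lineage marker in si-NC replicate 1 (blue) and replicate 2 (orange) on a log axis in FPKM, grouped by the layer or lineage it marks, with the floor of 1 FPKM dashed and libraries with 0 reads drawn open at the left edge. KRT19 lies above 1000 FPKM, KRT5 below 0.1, and all 8 columnar markers lie left of the floor.

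The keratins of simple epithelium did not come with the defining genes of gut or gastric epithelium. Of 28 simple columnar genes 10 were members, and of the 8 that define that lineage none was. Besides the keratins, the members included the tight junction genes CLDN4 (105 and 99.4 FPKM) and CLDN7 (57.3 and 52.8 FPKM), the adhesion gene EPCAM (85.9 and 83.9 FPKM) and the secretory disulphide isomerase AGR2 (57.4 and 63.4 FPKM). The intestinal factor CDX2 stood at 0.244 and 0.223 FPKM and the mucin MUC2 at 0.0959 and 0.0485 FPKM. On the length of its principal transcript, which is far shorter than the union of its exons, MUC2 came to 2.33 FPKM. That value comes from the short annotated length, and whether the reads arose from that transcript was not tested. It therefore does not place MUC2 above the floor. MUC5AC, HNF4A, CDH17, VIL1 and KRT20 were below 0.1 FPKM in each library, and TFF1 had no read.

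Markers of other lineages were mostly at or near 0. Of their 33 defining genes, the 8 columnar ones included, 3 were members (9.09%), namely COL1A1, CSF1R and CDH5. In bulk RNA of KYSE30 cells, low levels in all cells and higher levels in a few of them cannot be told apart. Of 17 fibroblast and mesenchyme genes 4 were members, led by FN1 (fibronectin) at 12.4 and 13.5 FPKM, with COL1A1 at 3.38 and 3.30 FPKM while DCN and LUM had no read. VIM, the filament gene of mesenchymal cells, stayed below the floor at 0.755 and 0.962 FPKM and came to 2.37 FPKM on principal transcript length. The leukocyte list had 1 member of 15, CSF1R, at 4.91 and 4.75 FPKM, while CD3E had no read and PTPRC was read 2 times in all. The endothelial list had 1 member of 10, CDH5, at 3.65 and 3.60 FPKM, while PECAM1 stood at 0.0108 and 0.0396 FPKM and KDR had no read. Of 15 neural and neuroendocrine genes MAP2 (7.76 and 7.99 FPKM) and ENO2 (1.07 and 1.16 FPKM) were members, and none of the 6 defining genes was. In the list of muscle, liver, lung and melanocyte genes, MITF (1.85 and 1.72 FPKM) and PMEL (1.55 and 1.52 FPKM) were the 2 members of 16, and none of the 6 defining genes was.

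Among 1553 genes that the table assigns to a transcription factor family, 840 were members (54.1%). The highest were general factors, led by the cold shock protein YBX1 at 688 and 687 FPKM. The inhibitor of basic helix-loop-helix factors ID1 followed at 376 and 361 FPKM and the chromatin protein HMGA1 at 300.1 and 294 FPKM. SOX2 ranked 31 and TP63 ranked 135 among these genes by mean FPKM. Of 33 epithelial lineage factors chosen as a list, 28 were members (84.8%). ESRP1, the epithelial splicing regulator, stood at 52.7 and 55.2 FPKM. ELF3, an ETS factor of epithelia, stood at 39.0 and 36.3 FPKM. FOSL1, an AP-1 subunit, had 34.8 and 32.4 FPKM, CEBPB 27.7 and 25.1 FPKM and GRHL2, a regulator of epithelial junctions, 22.7 and 22.9 FPKM. MYC stood at 23.1 and 22.1 FPKM, beside SOX2 among the 8 highest of this list. PAX9, a factor of the foregut, was a member at 1.71 and 1.84 FPKM, and ZNF750, a factor of terminal differentiation, was not, at 0.643 and 0.579 FPKM.

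Factors of other lineages were fewer, with 5 members of 28 (17.9%). The foregut and endoderm factors FOXA2 (3.89 and 3.85 FPKM), GATA6 (3.67 and 2.98 FPKM), FOXA1 (3.28 and 3.02 FPKM) and GATA4 (2.81 and 2.48 FPKM) were read at a few FPKM, as was MITF. NKX2-1 stood at 0.278 and 0.178 FPKM, SOX10 at 0.113 and 0.165 FPKM, and SPI1 had no read. Of 10 factors of epithelial-mesenchymal transition 4 were members. SNAI2, which basal epithelium also uses, led them at 9.14 and 8.01 FPKM, followed by TWIST2 (4.08 and 4.63 FPKM), TWIST1 (2.95 and 2.64 FPKM) and SNAI1 (1.79 and 1.12 FPKM). ZEB1, a repressor of epithelial genes, stood at 0.0387 and 0.0237 FPKM.

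Counts for factor families stand beside the 53.5% of protein-coding genes at the floor, and several families lay near that share. The SOX family had 8 members of 19 (42.1%). SOX15 (46.9 and 40.3 FPKM) lay beside SOX2 without separation, since the libraries of both overlapped. SOX9 and SOX13 followed at 15.3 and 15.3 FPKM and at 14.4 and 15.2 FPKM. The KLF family had 9 of 17 (52.9%). It was led by KLF5 (20.3 and 20.2 FPKM) and KLF4 (18.7 and 18.0 FPKM), regulators of basal growth and of differentiation. GATA3 was the highest of 13 GATA, FOXA and HNF genes at 22.3 and 22.6 FPKM, and 6 of these were members (46.2%). In the list of TP63 relatives and AP-2 factors 5 of 8 were members (62.5%). TFAP2C (22.1 and 21.8 FPKM) stood above TP63, TFAP2A (5.73 and 5.90 FPKM) and TP73 (2.96 and 3.09 FPKM). The PAX family had 2 of 9 (22.2%), PAX9 and PAX7, a factor of muscle precursors, at 4.05 and 4.52 FPKM. The HOX genes keep positional identity, and 15 of 39 were members (38.5%). By cluster these were 7 of 11 in HOXA, 5 of 10 in HOXB, 3 of 9 in HOXC (5 on principal transcript length) and 0 of 9 in HOXD. HOXC13 was highest at 15.6 and 15.5 FPKM, followed by HOXB7 (10.5 and 10.2 FPKM), and the highest HOXD gene, HOXD8, reached 0.159 and 0.272 FPKM. Of all 193 homeobox genes 56 were members (29.02%), and of 16 POU genes 1 was (6.25%), POU2F1.

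Receptor tyrosine kinases carry growth signals across the membrane, and 29 of 58 were members (50%). EGFR was the highest of them and, with EPHA2, made 42.4% of their summed FPKM. The ephrin receptor EPHA2 stood at 100.8 and 91.4 FPKM and the collagen receptor DDR1 at 94.5 and 89.0 FPKM, and these were not separated from each other. AXL, the receptor of GAS6, had 39.3 and 37.1 FPKM, EPHB4 35.8 and 34.4 FPKM and PTK7 23.7 and 23.5 FPKM. Below them ERBB2 stood at 15.01 and 15.8 FPKM and ERBB3 at 10.6 and 10.8 FPKM, and ERBB4 was below the floor at 0.0354 and 0.0432 FPKM. FGFR3 (14.1 and 14.4 FPKM), MET (13.8 and 14.2 FPKM) and IGF1R (13.7 and 14.1 FPKM) were not separated from one another in this order. FGFR4 (3.10 and 2.86 FPKM) and FGFR2 (2.24 and 2.07 FPKM) were members, and FGFR1 was not, at 0.923 and 0.806 FPKM, though it came to 2.03 FPKM on the length of its principal transcript. MST1R, the RON receptor, stood at 10.9 and 10.7 FPKM and INSR at 1.98 and 1.96 FPKM. MERTK (3.75 and 3.59 FPKM) and TYRO3 (1.86 and 1.86 FPKM) completed the TAM group with AXL. In the group of PDGFR, KIT, FLT3 and CSF1R, CSF1R alone was a member, and none of the 5 VEGFR and TIE receptors was. Of 28 neighbouring pairs among the 29 members, 16 were separated and 12 were not. The order also depended on the gene length used. The table divides by the union of all exons, and on the length of the principal transcript DDR1 came to 212 FPKM beside 207 for EGFR, and ERBB2 to 35.0 FPKM in place of 15.4.

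**Figure D2:**
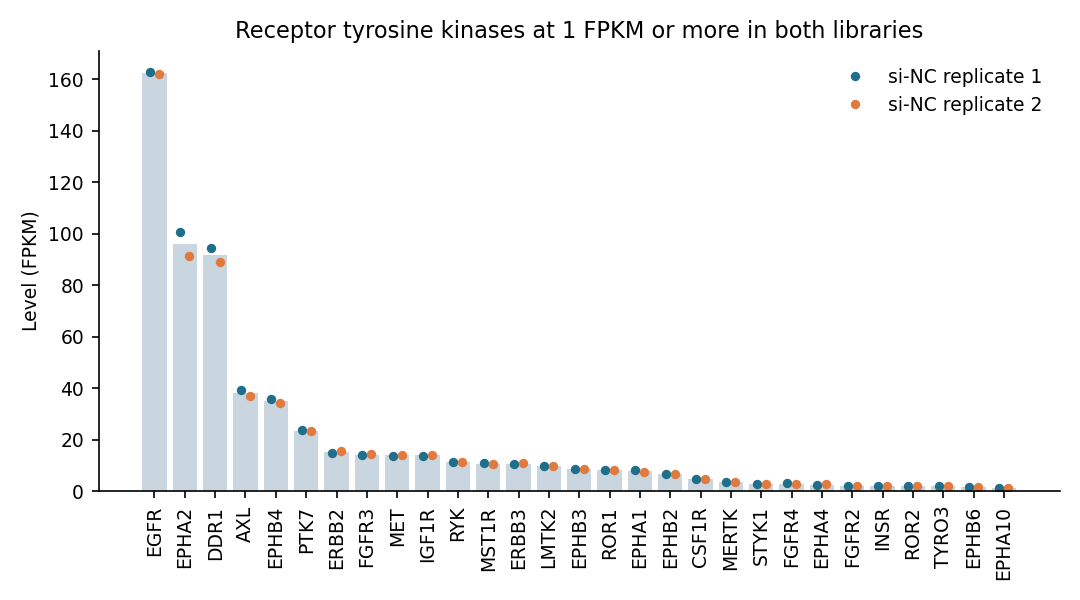
Mean level in FPKM (bars, from 0) of the 29 receptor tyrosine kinases at or above the floor in both libraries, with replicate 1 in blue and replicate 2 in orange. EGFR stands alone near 162 FPKM, EPHA2 and DDR1 lie between 89.0 and 100.8 FPKM, and all others are below 40 FPKM.

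Ligands of these receptors were members about as often as protein-coding genes at large. Of 11 EGF family ligands 6 were members (54.5%), and all 5 neighbouring pairs were separated. AREG (amphiregulin) led at 54.5 and 52.4 FPKM, followed by TGFA at 18.9 and 18.6 FPKM, EREG at 8.43 and 8.85 FPKM and EPGN at 5.13 and 4.79 FPKM. HBEGF stood at 2.21 and 2.37 FPKM and BTC at 1.13 and 1.13 FPKM. Of 36 other ligand and ligand carrier genes 18 were members (50%). FGFBP1, a carrier of fibroblast growth factors, was highest at 97.0 and 86.6 FPKM, ahead of the ephrins EFNA1 (17.7 and 16.9 FPKM) and EFNA4 (12.8 and 13.0 FPKM) and of VEGFB (13.5 and 11.7 FPKM).

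Counts for receptors of the developmental pathways stand beside the 53.5% of protein-coding genes at the floor, and the lists are small. Of 14 TGF-beta family receptors 10 were members (71.4%), with TGFBR1 at 41.3 and 44.3 FPKM and TGFBR2 at 24.1 and 23.1 FPKM. Among 17 WNT receptor genes 11 were members (64.7%). They were led by the co-receptor LRP5 (40.2 and 40.2 FPKM) and by FZD6 (25.7 and 26.9 FPKM) and FZD2 (22.1 and 18.5 FPKM). Of 7 NOTCH and Hedgehog receptors 5 were members (71.4%). NOTCH1 stood at 19.5 and 19.7 FPKM, NOTCH3 at 16.9 and 16.6 FPKM and NOTCH2 at 10.3 and 10.3 FPKM. NOTCH4 was at 0.0730 and 0.0682 FPKM. The Hedgehog receptor PTCH1 was a member at 1.94 and 1.88 FPKM, but SMO, which relays the Hedgehog signal, had 6 and 4 reads, at 0.0583 and 0.0475 FPKM.

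Of 48 nuclear receptors 23 were members. The orphan receptors NR2F6 (55.9 and 56.3 FPKM) and NR2F2 (40.1 and 42.5 FPKM) were highest, and ESRRA had 36.1 and 33.1 FPKM. RARG, the retinoid receptor of squamous epithelium, stood at 8.99 and 9.61 FPKM and VDR at 6.05 and 5.88 FPKM. The oestrogen receptor ESR1 was just above the floor at 1.203 and 1.17 FPKM, and the progesterone receptor PGR had no read, which allows up to 0.00449 FPKM.

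Immune receptors differed between families. In the TNF receptor family 12 of 29 were members, led by TNFRSF21 (138 and 139 FPKM), the TWEAK receptor TNFRSF12A (90.4 and 84.5 FPKM) and the TRAIL receptors TNFRSF10D (40.3 and 41.5 FPKM) and TNFRSF10B (35.2 and 34.0 FPKM). Of 29 cytokine receptors 18 were members, led by IL13RA1 (23.4 and 22.9 FPKM), OSMR (17.0 and 16.9 FPKM) and IL6ST (15.8 and 16.1 FPKM). Of 10 Toll-like receptors TLR3 (2.53 and 2.69 FPKM) and TLR6 (2.37 and 2.61 FPKM) were members. Of 22 chemokine receptors the only member was CCR3 at 1.48 and 1.41 FPKM.

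Matrix receptors were concentrated in a few chains, with 6 of 18 alpha and 5 of 8 beta integrins as members. ITGA3 (72.1 and 65.3 FPKM), ITGA2 (67.3 and 66.4 FPKM) and ITGAV (59.4 and 60.3 FPKM) followed ITGA6 among the alpha chains. ITGB1, the common partner of the alpha chains, stood at 61.3 and 63.0 FPKM, below ITGB4, and ITGB5 and ITGB6 at 29.8 and 29.4 FPKM and at 25.2 and 24.6 FPKM. Of 30 surface antigens 25 were members (83.3%). Among them BSG, the antigen basigin, stood at 140.5 and 135 FPKM, CD24 at 103 and 107 FPKM, the tissue factor gene F3 at 82.5 and 88.8 FPKM and CD276 at 41.3 and 39.7 FPKM. CD274, the checkpoint ligand PD-L1 (named after its value was seen), lay on both sides of the floor at 1.04 and 0.722 FPKM. In the MHC list 7 of 15 were members, all of class I, its light chain or its regulator NLRC5. HLA-E stood at 90.6 and 85.6 FPKM, HLA-C at 70.9 and 76.5 FPKM and B2M, the light chain of class I, at 69.2 and 66.1 FPKM. Reads of near-identical HLA genes could have been assigned to either gene.

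Loci often altered in squamous carcinoma were read with their neighbours within 1 Mb of the start of each anchor gene. On chromosome 11, CCND1, the G1 cyclin, stood at 114 and 113 FPKM, and 14 of 20 protein-coding genes in its window were members. CTTN, which encodes the actin regulator cortactin, was higher than CCND1 at 185 and 184 FPKM, and FADD, a death receptor adaptor, had 48.1 and 47.7 FPKM. PPFIA1 stood at 24.96 and 25.5 FPKM and ANO1 at 6.23 and 6.85 FPKM, whereas FGF3 and FGF4 between CCND1 and ANO1, and MRGPRD and MRGPRF on the other side of CCND1, had no read. On chromosome 7, 8 of 11 genes in the window of EGFR were members. SEC61G, a subunit of the protein translocon, stood above EGFR at 174 and 171 FPKM, VOPP1 had 64.3 and 66.8 FPKM, and LANCL2, which lies between EGFR and VOPP1, had 16.1 and 16.3 FPKM. VSTM2A in the same window had no read. On chromosome 3, all 3 genes in the window of SOX2 were members, with FXR1 at 24.1 and 24.9 FPKM and DNAJC19 at 14.1 and 14.6 FPKM. In the window of TP63 4 of 7 were, with CLDN1 at 39.0 and 40.01 FPKM and P3H2 at 15.5 and 15.9 FPKM, while TPRG1 stood at 0.839 and 0.842 FPKM, or 1.46 FPKM on principal transcript length.

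CDKN2A, the locus of p16 and p14ARF on chromosome 9, was read at 11.7 and 11.7 FPKM, and its neighbours CDKN2B and MTAP at 16.9 and 15.8 FPKM and at 2.97 and 3.25 FPKM. On the length of the principal transcript CDKN2A came to 39.5 FPKM and CDKN2B to 16.9 FPKM, which reverses their order. The table does not separate the CDKN2A transcripts. Of 23 genes in its window 4 were members and 15 had no read, among them all 13 interferon alpha genes. In the list of tumour suppressor and cell cycle loci 20 of 25 were members, with CDKN1A, the p21 inhibitor, at 113 and 106 FPKM and CDK4 at 37.4 and 35.9 FPKM. FHIT and CCND2 had no read, which allows up to 0.0127 and 0.00965 FPKM, and TERT stood at 0.155 and 0.211 FPKM (these 3 named after their values were seen).

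By biotype, protein-coding genes were 81.6% of the members and held 89.3% and 89.96% of the members' summed FPKM. The median protein-coding member stood at 7.75 FPKM, with quartiles of 3.65 and 16.9 FPKM. By level, 6260 protein-coding members lay from 1 to under 10 FPKM, 4126 from 10 to under 100, 273 from 100 to under 1000 and 21 at 1000 or more. The other 2408 members were mainly 566 antisense genes, 444 processed pseudogenes, 415 long intergenic RNAs and 152 transcribed unprocessed pseudogenes, with medians between 2.02 and 3.49 FPKM. No protein-coding member had a mean under 10 reads, but 302 other members did, including 76 of 115 miRNA genes and 52 of 68 snRNA genes. Of the protein-coding genes, 3666 had no read in either library. Some large families were almost wholly below the floor. OR2A7 was the single member among 386 olfactory receptors, of which 327 had no read, and none of 94 keratin-associated protein genes was a member, of which 84 had no read.

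**Figure D3:**
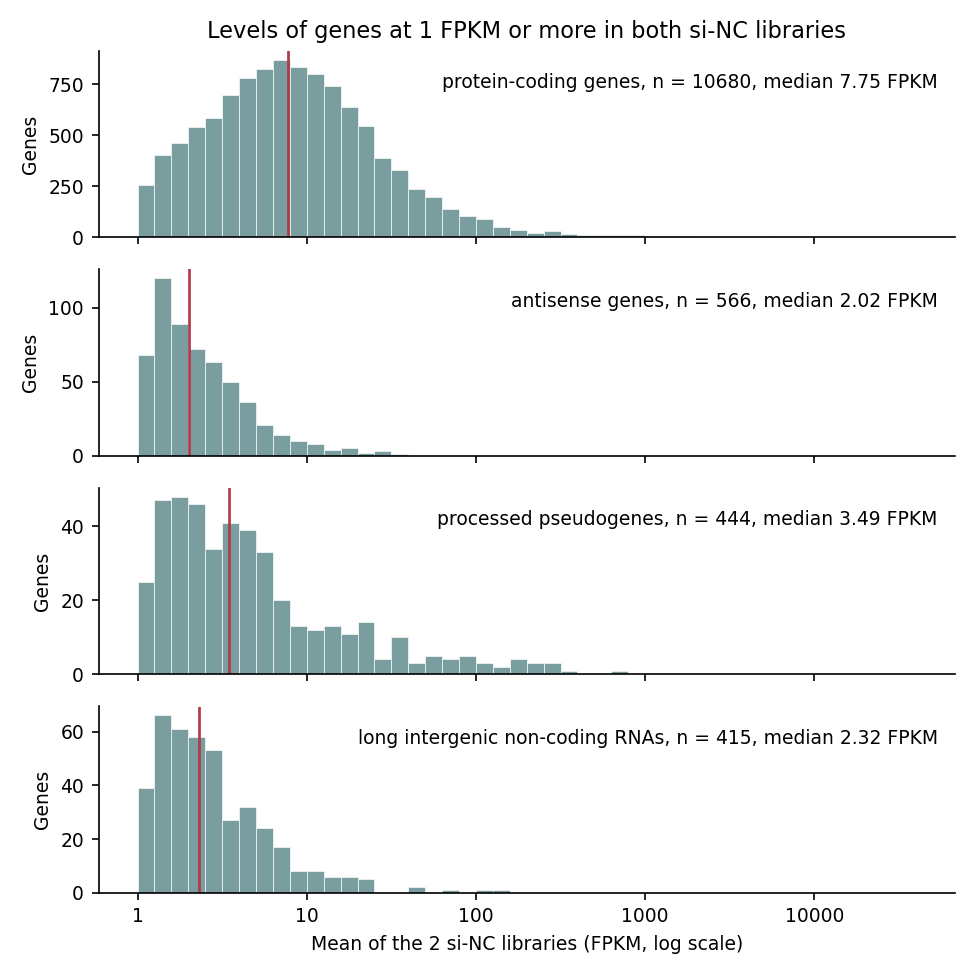
Number of members per bin of mean FPKM (log axis) for the 4 biotypes with the most members, with the median as a vertical line. The protein-coding median of 7.75 FPKM lies to the right of those of antisense genes (2.02), processed pseudogenes (3.49) and long intergenic RNAs (2.32).

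The highest levels belonged to mitochondrial RNA. Of the 20 protein-coding genes of highest mean FPKM 12 were mitochondrially encoded, from MT-CO1 at 11243 and 11056 FPKM downward, through MT-ND4, MT-CO2, MT-ND4L, MT-CO3, MT-ATP6, MT-ND6, MT-ND3, MT-ND2, MT-ND5 and MT-CYB to MT-ND1 at 1561 and 1722 FPKM. All 13 mitochondrial mRNAs made 17.6% and 17.9% of summed FPKM but 5.06% and 5.09% of reads. The 8 nuclear genes among these 20 were EEF1A1 (translation elongation, 1636 and 1633 FPKM), the ferritin chains FTL (1531 and 1523 FPKM) and FTH1 (1199.8 and 1216 FPKM), the actin-sequestering TMSB10 (1567 and 1461 FPKM), KRT19, the glycolytic GAPDH (1247 and 1226 FPKM), ACTG1 (1146 and 1109 FPKM) and RPL13A (1087 and 1032 FPKM). Of 84 cytosolic ribosomal protein genes 82 were members, with 7.57% and 7.56% of summed FPKM. The 10 highest genes of any kind held 17.4% and 17.6% of summed FPKM, the 100 highest 37.4% and 37.3%, and the 1000 highest 62.8% and 62.6%. PADI3, a peptidylarginine deiminase known from hair follicle and epidermis, ranked 31 among nuclear protein-coding genes at 564 and 552 FPKM (named after its value was seen).

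Among long non-coding RNAs, UCA1, known from urothelial carcinoma, was the highest intergenic one at 147 and 149.97 FPKM. NORAD had 114 and 117 FPKM, and the nuclear RNAs NEAT1 and MALAT1 had 66.8 and 65.2 FPKM and 42.0 and 43.3 FPKM. LRRC75A-AS1 stood at 223 and 221 FPKM, and the growth arrest RNA GAS5 at 43.5 and 44.6 FPKM. MIR205HG, the host gene of miR-205, stood at 86.5 and 84.9 FPKM, and the MIR205 hairpin gene at 75.4 and 67.4 FPKM from 198 and 145 reads. In these libraries a read in a hairpin cannot be told from its host transcript, so the value is no measure of the mature miRNA. The 2 mature arms of MIR205, a miRNA known from stratified epithelia, are shown with bases 2 to 8, the seed of each arm, in capitals (RefSeq, GRCh38.p14).
hsa-miR-205-5p: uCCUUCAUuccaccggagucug
hsa-miR-205-3p: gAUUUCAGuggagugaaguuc
The arms have different seeds. Among miRNA genes with at least 50 reads in each library, MIR3972 stood at 122 and 119 FPKM and MIR570 at 76.0 and 80.2 FPKM. These genes have 87 and 97 bases. MIR3972 lies within PADI3 on the same strand, so its reads cannot be told from those of PADI3 transcripts. The highest processed pseudogene, RPS2P5, had 728 and 695 FPKM beside 957 and 949 FPKM for RPS2. On principal transcript length the mean was 712 FPKM for RPS2P5 and 2334 FPKM for RPS2. Reads of such near-identical copies could have been assigned to either.

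Promoter sequence differed with level over the table. RefSeq promoters of 300 bases were matched to 14892 of 19951 protein-coding genes. Over all 17388 matched genes, the median ratio of observed to expected CpG was 0.278 where no read was found and 0.527 for genes with reads but a mean under 1 FPKM. It was 0.840 from 1 to under 10 FPKM, 0.871 from 10 to under 100 FPKM and 0.874 at 100 FPKM or more. The letters ATAAA, searched on the strand of the gene 16 to 40 bases upstream, were found in 11.1% of promoters with no read, 7.26% of those with reads but a mean under 1 FPKM, 2.52% from 1 to under 10 FPKM, 2.34% from 10 to under 100 FPKM and 7.11% at 100 FPKM or more, against 5.65% of all. By these medians the EGFR promoter lay near the value of its level bin, and those of TP63, SOX2 and KRT5 lay below the values of theirs. The TP63 window is that of the first promoter only, while the level of TP63 may include transcripts started inside the gene. A match of letters is a description of the window and not evidence of a binding site.

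**Figure D4:**
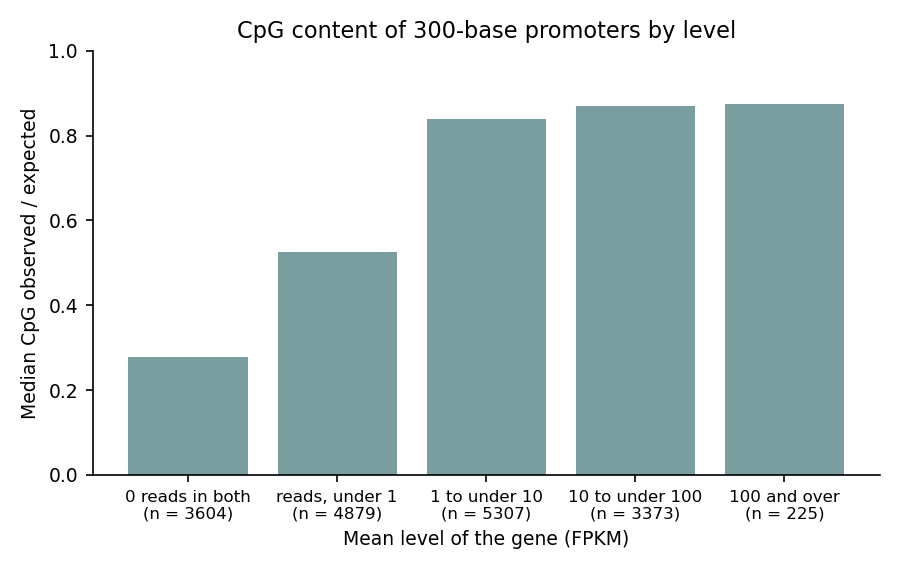
Median ratio of observed to expected CpG in 300-base RefSeq promoters (bars, from 0), by bin of mean FPKM, for all genes with a matched promoter. The bar rises from 0.278 for genes without reads to 0.840 in the bin of 1 to under 10 FPKM and changes little above it.

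Reads recovered from FPKM and length summed over genes to 24178125 in replicate 1 and 19752125 in replicate 2. The FPKM values were scaled to slightly fewer, 23874072 and 19548258 reads. The 2 libraries ranked the members alike. Across the 13088 members, which are genes and not independent replicates, Spearman's rho was 0.989 and Pearson's r of log2(FPKM + 1) was 0.994, and the median absolute difference was 0.06 on that log2 scale. Of the protein-coding members 97.9% lay within 1.25-fold. A difference over 2-fold was found for 129 members, of which 2 were protein coding. Genes that met the floor in a single library are not members, so these figures leave them out. With no floor the median absolute difference was 0.0755. The spread exceeded counting error, with a chi-square per degree of freedom of 2.41. Members were then ordered by their difference between libraries in units of counting error, which favours genes with many reads. The 5 members with the largest such excess in replicate 1 were non-coding or pseudogenes. The signal recognition particle RNA gene RN7SL2 stood at 2192 and 1318 FPKM, EEF1A1P5 at 380.2 and 253 FPKM beside equal levels of its parent EEF1A1, and the imprinted RNA H19 at 30.7 and 13.3 FPKM. Another of them, PPIAP22, stood at 75.4 and 31.0 FPKM. In the other direction the largest by this measure were MT-ND1, given above, MALL (13.3 and 19.9 FPKM), PEG10 (98.7 and 109 FPKM), SET (117 and 129 FPKM) and NAP1L1 (26.1 and 28.9 FPKM). Processed pseudogenes were higher in replicate 1 in 64.2% of 444 cases, against 48.9% of protein-coding members, and the cause was not tested.

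**Figure D5:**
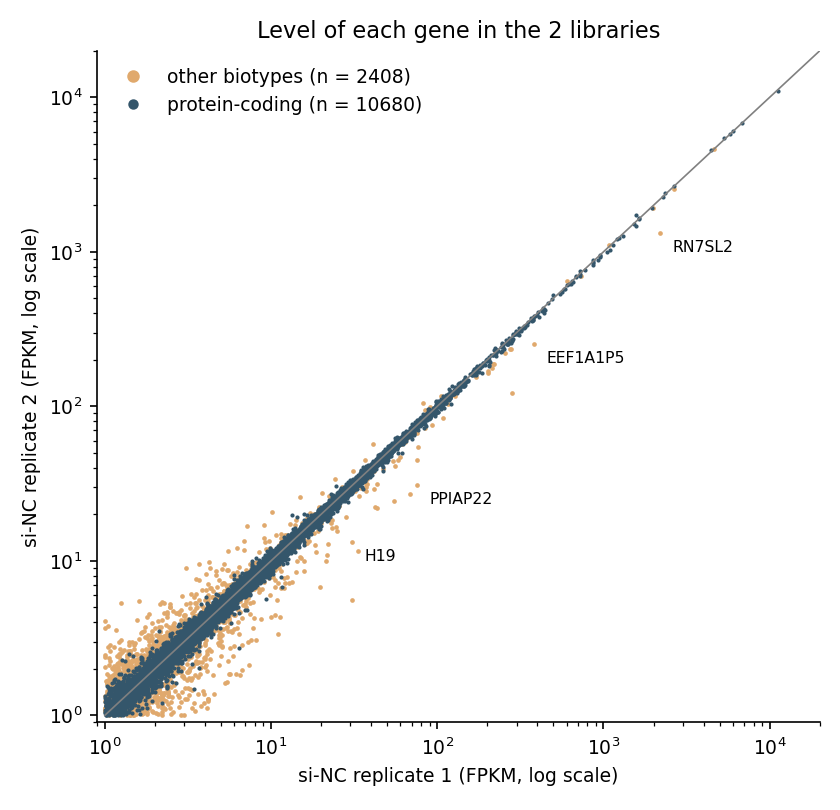
Level of each member in si-NC replicate 1 and replicate 2, both on log axes in FPKM, with protein-coding genes in dark blue, other biotypes in tan and the line of equal levels in grey. The named points, among them RN7SL2 and H19, lie below the line and are higher in replicate 1.

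Membership is described here at the edge of the floor and by the exon bases shared with other genes. Why it differed with shared bases was not tested. Just inside the floor lay AC008267.3 (1.00 and 2.37 FPKM) and ZNF852 (1.00 and 1.29 FPKM), and just outside it AL513174.1 (0.999 and 1.301 FPKM) and AC129926.1 (1.36 and 0.9998 FPKM). Protein-coding genes with nearly all exon bases shared with another annotated gene were rarely members. Of 440 with over 95% shared, 2 were members (0.455%) and 77.7% had no read, and of 292 with over 75% to 95% shared 6.51% were members. Of 401 with over 50% to 75% shared, 29.2% were members. Overlaps of up to 50% did not go with fewer members than the 49.3% of 11097 genes with none shared. Members were 67.5% of 6697 genes at up to 25% shared and 54.1% of 1024 at over 25% to 50%. For genes with over 50% shared, a level below the floor cannot be read as absence. IFNAR2, with 83.2% of its exon bases shared and 0.363 and 0.233 FPKM, is among the receptors this touches (named after its value was seen). Gene length was the union of all exons for all 58735 genes, and it exceeded the length of the principal transcript by a median factor of 1.41, and by over 2 in 2451 protein-coding members (22.9%).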

How the data were processed

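Total RNA of KYSE30 cells was sequenced, and the authors deposited FPKM per gene in 1 column per library. Per the submitters' processing notes, which give no roles, the build was hg19 and the tools were STAR 2.5.1b, RSEM 1.2.29, edgeR 3.8.5, Trimmomatic 0.36 and FastQC. The sources used here do not give strandedness, read length or poly(A) selection. Starts and ends of all 58735 genes equal GENCODE release 29 on GRCh38, so positions are on GRCh38. FPKM times length gave whole reads within 0.01 of a read for 100% of values, and read counts quoted are these. RSEM estimates need not be whole, so which tool counted the deposited values is unknown, and reads of near-identical or overlapping genes may have been discarded. That recovery and the chi-square of the libraries were tested on simulated data. In 27 cases a symbol had become a date and was restored by gene ID.

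Only the 2 si-NC columns were used, with no test, since they form 1 group. The members, the 46 gene lists (708 genes) and the rules were chosen with earlier results of these data known. Named were the 4 markers, the 20 highest protein-coding genes, up to 5 per biotype, up to 8 members and all defining genes per list, all genes of receptor lists of up to 8, all neighbours of anchor genes, the 5 members most apart between libraries in each direction and the 2 genes on each side of the floor, and exceptions are marked. Many of these are given only within their list's count, and some named genes are not reported here. Floors of 0.5, 2 and 5 FPKM, a minimum of 10 reads, TPM, median-of-ratios scaling, other pseudocounts, principal transcript length and single libraries were tried. Scripts used python 3.11.15, numpy 2.4.6, pandas 2.3.3 and matplotlib 3.10.9.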

Additional observations from a re-analysis of the deposited data

How the results depend on the processing

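Membership kept its size, within 1.5 times 13088 genes, under floors of 0.5 FPKM (15522 genes) and 2 FPKM (10756), with at least 10 reads (12709), at 1 TPM (17463), on principal transcript length (13826, an alternative chosen after seeing the data) and in single libraries (13675 to 13700), but fell to 7350 at 5 FPKM. Genes of the lists at the floor numbered 329, within 1.5 times of that under the same changes except TPM, which was not run for them, and 209 at 5 FPKM. Counts of single lists moved by over 1.5 times in 3 of 46 lists at 0.5 FPKM, 7 at 2 FPKM, 25 at 5 FPKM and 1 on principal transcript length, and in 0 with at least 10 reads or in either single library. The protein-coding share of the members' level, 89.6% on average (89.3% to 89.96% in single libraries), was 96.9% of reads and 91.9% without mitochondrially encoded genes. The share of the 10 highest genes, 17.5% (17.4% to 17.6%), was 6.63% of reads, 18.6% within protein-coding genes and 5.76% without mitochondrial genes. For the 100 highest, 37.4% (37.3% to 37.4%) became 20.4%, 37.7% and 22.3%, and for the 1000 highest, 62.7% (62.6% to 62.8%) became 50.1%, 64.0% and 52.8%. Of the 20 highest nuclear protein-coding genes, 11 were kept when ranked by reads and 10 on principal transcript length, and all 20 in either single library. The difference of the libraries and the promoter medians moved by less than 1.5 times under every alternative tried for them. TPM values of the 473 genes followed were 3.37 times the FPKM in the median, and principal transcript length moved 147 of them by over 1.5 times. No paired analysis was possible because a single group was described. Levels near 1 FPKM in short genes rest on few reads, and 2 libraries give no firm estimate of spread.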

Other observations

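Cancer-testis antigens, which are normally confined to germ cells and are re-expressed in many carcinomas, formed a divided group. Of 23 such genes 7 were members and 12 had no read. CTAG2 stood at 171 and 160 FPKM, MAGEA4 at 134 and 130.1 FPKM, MAGEA3 at 95.2 and 95.8 FPKM and MAGEA6 at 62.0 and 66.7 FPKM. MAGEB2 had 55.8 and 55.8 FPKM, LAGE3, which many tissues express, 35.4 and 30.0 FPKM, and MAGEA10 17.8 and 19.1 FPKM. The near-identical genes CTAG1A and CTAG1B, named after their values were seen, stood below 0.3 FPKM in both libraries, and reads of MAGEA3 and MAGEA6 could have been assigned to either gene.

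Protein-coding membership by chromosome ran from 42.9% of 231 genes on chromosome 21 to 59.3% of 442 genes on chromosome 22 among the autosomes, and was 38.9% of 845 genes on chromosome X.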
